A study of Mus musculus with 8 samples.

Results

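The transcripts described here are those of the haemoglobin chains and of Alas2, the enzyme that starts heme synthesis in red cell precursors. The 8 genes were taken by symbol from the 49315 gene IDs of the count table, and each matched 1 ID. They are 4 adult globin genes, of alpha type (Hba-a1 and Hba-a2) and of beta type (Hbb-bs and Hbb-bt), 3 embryonic globin genes (Hbb-y, Hbb-bh1 and Hba-x) and Alas2. The study sequenced RNA from calvaria, the bones of the skull vault, of female mice on the C57BL6 strain at an age of 2 to 3 days, with 4 wild-type (WT) and 4 Girk3-/- (KO) libraries. Girk3 is the potassium channel subunit encoded by Kcnj9, and no other allele or treatment was named in either group. The series title speaks of a global deletion, and the labels name no Cre driver for these samples. The labels do not say whether mice shared a litter, so p-values measure the spread between these 8 libraries.

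Haemoglobin is assembled from alpha-type and beta-type chains, each of which holds a heme. In the mouse embryo the first red cells, made in the yolk sac, use the embryonic chains zeta (Hba-x), epsilon-y (Hbb-y) and beta-h1 (Hbb-bh1). Red cells made later in the fetal liver and the bone marrow use the adult chains. Along the direction of transcription, the embryonic genes of both clusters come before the adult genes. The skull bones of a newborn hold blood and forming marrow. Alas2 makes aminolevulinate in mitochondria and is the red cell form of an enzyme whose other form, Alas1, works in most tissues.

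The alpha cluster lies on the plus strand of chromosome 11 (GRCm38/mm10): Hba-x from 32276400 to 32278116, Hba-a1 from 32283511 to 32284465 and Hba-a2 from 32296489 to 32297298. The beta cluster lies on the minus strand of chromosome 7: Hbb-y from 103851749 to 103853216, Hbb-bh1 from 103841637 to 103843164, Hbb-bs from 103826534 to 103828096 and Hbb-bt from 103812524 to 103813996. Alas2 lies on the plus strand of chromosome X from 150547375 to 150570638.

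The adult genes come in near-identical pairs, and the only coding bases that tell the members of a pair apart are shown because each read of these genes has to be assigned to 1 copy. Hba-a1 and Hba-a2 differed at 1 of 429 coding bases, C381T, and Hbb-bs and Hbb-bt at 1 of 444, C417T, counted from the first base of the start codon. Both differences lie in exon 3 of 3. The 41 bases around each, from GRCm38 with the differing base in capitals, are given 5′ to 3′ on the coding strand, at chr11:32284323-32284363 (plus), chr11:32297140-32297180 (plus), chr7:103826672-103826712 (minus) and chr7:103812663-103812703 (minus).
Hba-a1: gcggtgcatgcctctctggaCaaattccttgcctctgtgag
Hba-a2: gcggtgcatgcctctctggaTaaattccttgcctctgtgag
Hbb-bs: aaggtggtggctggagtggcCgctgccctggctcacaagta
Hbb-bt: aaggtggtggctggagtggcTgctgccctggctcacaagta
All stretches of 100 bases were taken from the first-numbered annotated transcript of each gene. For Hba-a1 56.5% of the stretches, and for Hba-a2 74.5%, occurred unchanged in the partner. The shares were 62.6% for Hbb-bs and 54.8% for Hbb-bt. The sources used here give neither the read length nor the rule for reads that fit both copies. The split of counts within a pair is therefore uncertain, and the sum of a pair less so. The 3 embryonic genes shared no such stretch with another gene. Of Alas2, 11% of the stretches lay in Apex2, a gene on the opposite strand that overlaps its end, and whether counting used strand is not given either.

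Promoters of the genes are shown because the adult globins and Alas2 varied together across the libraries, whereas the embryonic globins were all but absent. RefSeq entries were found for 7 of the 8 genes, all but Hbb-bh1. The 120 bases before the RefSeq start are given on the coding strand of build GRCm38.p6, for Hba-a2 (chr11:32296372-32296491, plus), Hbb-bs (chr7:103827929-103828048, minus), Hbb-y (chr7:103853208-103853327, minus) and Alas2 (chrX:150547297-150547416, plus). Capitals mark matches on either strand to the CACCC box (CACCC), the CCAAT box (CCAAT), the GATA motif (GATAA) and 2 forms of the TATA box, ATAAA and a longer form, ATATAA. In Alas2 the matches to GATAA and ATAAA overlap on the opposite strand.
Hba-a2: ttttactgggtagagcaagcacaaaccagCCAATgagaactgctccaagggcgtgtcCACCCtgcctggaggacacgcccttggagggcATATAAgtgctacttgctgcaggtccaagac
Hbb-bs: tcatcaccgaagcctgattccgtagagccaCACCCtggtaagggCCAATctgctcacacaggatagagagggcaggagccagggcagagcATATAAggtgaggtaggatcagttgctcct
Hbb-y: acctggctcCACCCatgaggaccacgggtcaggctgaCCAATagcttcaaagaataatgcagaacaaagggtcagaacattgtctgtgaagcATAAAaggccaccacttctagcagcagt
Alas2: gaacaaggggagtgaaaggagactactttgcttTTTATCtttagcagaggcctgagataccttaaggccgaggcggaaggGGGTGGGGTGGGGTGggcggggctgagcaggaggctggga
The letters CACCC occurred in all 7 promoters, on the opposite strand in Alas2 with 3 matches, and in 31.3% of 27025 RefSeq promoters of the same length. CCAAT occurred in 22.1% of them, GATAA in 10.7%, ATAAA in 20.8% and ATATAA in 4.68%. The windows of Hba-a1 and Hba-a2 were identical over 117 of 117 aligned bases, whereas those of Hbb-bs and Hbb-bt matched at 88 of 119 (73.9%). The alpha copies shared their upstream sequence as well as their coding sequence. A match is a run of letters, not a binding site shown by these data.

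Libraries held between 35.4 M and 54.3 M counts, so a floor of 3 counts was at most 0.0848 CPM (counts scaled to library size). Transcripts of Kcnj9 stood at 0, 0, 1 and 4 counts in WT replicates 1 to 4 and at 2, 5, 7 and 9 in KO replicates 1 to 4. They were near the floor in all libraries and higher in those labelled KO, so they do not check the genotype, and the groups below are the labelled ones. Bone-forming cell genes were abundant, with a summed level of 153733 to 171447 CPM in WT and 143479.7 to 177603 in KO for 10 genes such as Col1a1. The summed level of 14 skeletal muscle genes was 13.6 CPM in WT replicate 3, 47.7 in KO replicate 2 and 152 in KO replicate 3, against 747 to 2674 in the other libraries. These 3 libraries are called muscle-poor, and results are also given without them. In the comparison of KO with WT by edgeR's quasi-likelihood test, 234 of 17743 tested genes (1.32%) passed an adjusted p of 0.05, 79 higher and 155 lower (0.874%). With library totals alone as the scale, the split was 113 and 99. The count lay between 57 and 105 when WT replicate 2, 3 or 4 or KO replicate 2 or 3 was left out, and was 608 without KO replicate 4. Without the 3 muscle-poor libraries it was 8. An unadjusted p under 0.05 was met by 17.4% of tested genes, and in 10.6% the values of the groups did not overlap. DESeq2 called 5.37% of genes and limma-voom 1.29%.

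All 4 adult globin genes were expressed in every library, and the genes of both clusters that are used in the embryo were almost silent. Per kb of exon, Hbb-bs, a beta copy, had the highest level, 388 ± 129 CPM per kb in WT and 235 ± 97.3 in KO (mean ± SD, n = 4 each). It ranked between 51 and 206 of 17695 tested genes, depending on the library. Hba-a1, an alpha chain, stood at 245 ± 69 CPM per kb in WT and 161 ± 62.9 in KO. Its ranges overlapped those of Hbb-bs across libraries, but within each of the 8 libraries Hbb-bs was higher.

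Hba-a2, the other alpha copy, had 91.1 ± 23.3 CPM per kb in WT and 45 ± 13.7 in KO. Hbb-bt, the other beta copy, had 66.4 ± 17.7 and 46.1 ± 15 CPM per kb. The ranges of Hba-a2 and Hbb-bt overlapped across libraries. Compared within libraries, Hba-a2 was higher in all 4 WT libraries, and the order was swapped in 2 of 8 libraries, KO replicates 3 and 4. Alas2 was far below the globins, at 8.41 ± 2.9 CPM per kb in WT and 5.83 ± 1.86 in KO, and ranked between 3694 and 7748.

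**Figure D1:**
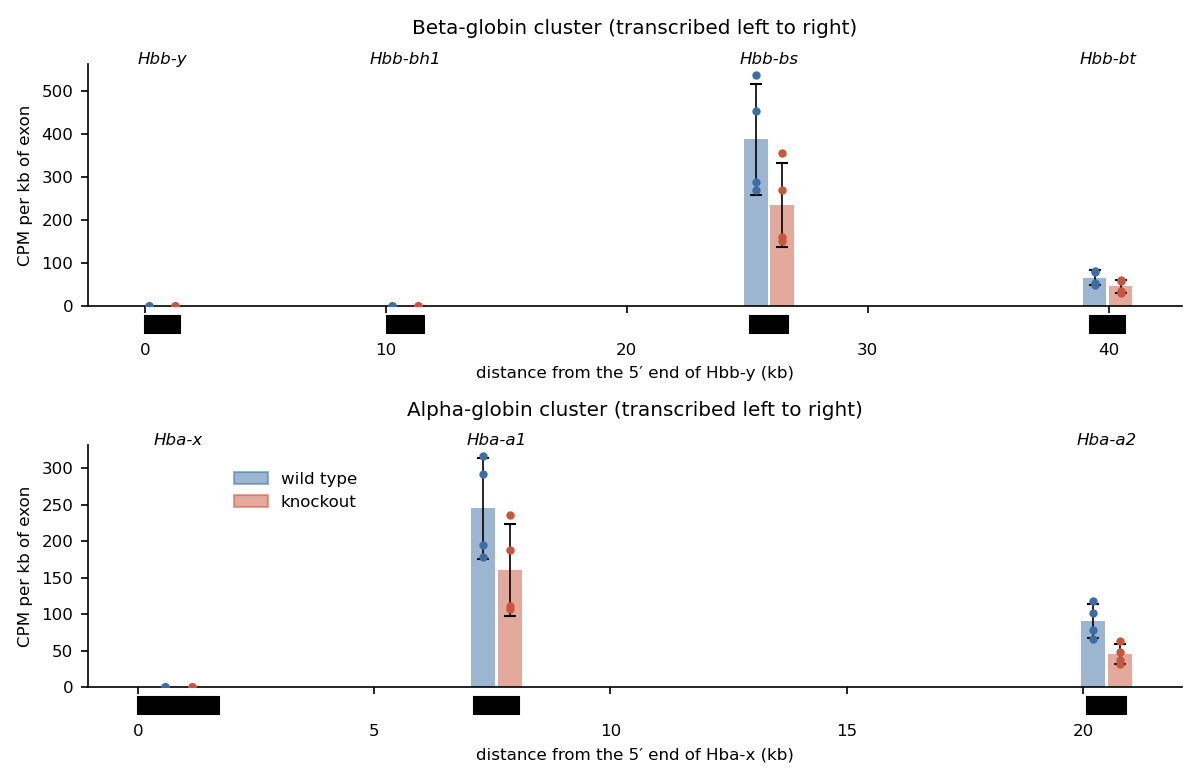
Levels along the beta-globin (top) and alpha-globin (bottom) clusters, as CPM per kb of exon (y axis) against the distance in kb from the 5′ end of the embryonic gene that opens the cluster (x axis). Bars are group means, error bars the SD over 4 libraries, points single libraries and black boxes the genes; Hbb-y, Hbb-bh1 and Hba-x sit at or next to 0, and Hbb-bs and Hba-a1 stand highest.

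The embryonic genes were at the limit of counting. Hbb-y had 0 counts in all 8 libraries. Hbb-bh1 had 2 counts in KO replicate 2 and 0 in the other 7, and Hba-x had 2 counts in KO replicate 1 and 0 elsewhere. In all, 4 of 176107 globin counts (0.00227%, exact Clopper-Pearson 95% interval 0.000619 to 0.00582) came from embryonic genes. The interval covers counting error only, since reads are not independent molecules. The lowest sum of adult globin counts in a library was 11537, 3846 times the floor of 3 counts. The floor of 3 counts equalled 0.00838% to 0.026% of the globin counts, depending on the library. An embryonic share below that value was not resolved in a single library. A difference between the groups could not be tested at this depth. With counts in 1 library alone, Hbb-bh1 and Hba-x give a two-sided exact permutation p of 1 whichever library holds them. Hbb-y gave no test.

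Other genes of the globin family that the erythroid lineage can use were also near 0. Hbb-bh0 and Hbb-bh3, further genes of the beta cluster, had 0 counts, and Hbb-bh2 had 1 count in KO replicate 2. The theta-type genes Hbq1a and Hbq1b, near the alpha cluster, reached at most 5 and 24 counts, the second in KO replicate 2 (24) and WT replicate 3 (22). These 2 libraries are among the muscle-poor ones and hold high levels of other red cell transcripts, as described further on. Of the globins of other tissues, Cygb (cytoglobin) had 40 CPM in WT and 37.9 in KO, Ngb (neuroglobin) 0.68 and 0.496, and Mb (myoglobin, of muscle) 3.45 and 1.04. None of these 3 passed the test. Their log2 differences were -0.08 ± 0.147, -0.45 ± 0.344 and -1.74 ± 1.22 (± SE, edgeR adjusted p = 0.83, 0.534 and 0.513). The difference of Cygb turned its sign in 3 of the alternatives, and Mb stood at 0.0447 CPM in the muscle-poor WT replicate 3 against 6.37 in WT replicate 1.

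Globin transcripts were lower on average in KO calvaria, but only Hba-a2 had groups that did not overlap, and no member passed the test over all genes. Hba-a2 stood at 79, 52.1, 67.6 and 44.3 CPM in WT replicates 1 to 4 and at 24.7, 42, 21.4 and 31.9 CPM in KO replicates 1 to 4. All 4 WT libraries lay above the highest KO library, by a narrow margin between WT replicate 4 and KO replicate 2. This separation depends on how reads that fit both alpha copies were assigned, since 74.5% of the 100-base stretches of Hba-a2 occur in Hba-a1. Its log2 difference of KO over WT was -1.02 ± 0.263 (SE), a ratio of 0.494 (edgeR adjusted p = 0.125, 0.00569 before adjustment). DESeq2 called it (adjusted p = 0.0131) and limma-voom did not (0.119). Over 17 alternatives the log2 difference lay between -1.22 and -0.87 and the adjusted p between 0.0131 and 0.437.

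Hba-a1 stood at 257, 145, 237 and 158 CPM in WT and at 86.8, 153, 90.3 and 192 CPM in KO, in replicate order. KO replicates 1 and 3 were lowest, WT replicates 1 and 3 highest, and KO replicates 2 and 4 lay within the WT range. The log2 difference was -0.61 ± 0.333 (edgeR adjusted p = 0.399). With the reads of both alpha copies summed, which does not depend on how reads were split, it was -0.70 (edgeR adjusted p = 0.308).

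Hbb-bs stood at 412, 208, 349 and 222 CPM in WT and at 117, 207, 124 and 274 CPM in KO. The order of libraries was nearly that of Hba-a1: WT replicates 1 and 3 were high, KO replicates 1 and 3 low, and KO replicate 4 exceeded WT replicates 2 and 4. The log2 difference was -0.72 ± 0.369 (edgeR adjusted p = 0.371), and -0.69 with the reads of both beta copies summed (adjusted p = 0.372). Hbb-bt stood at 58, 38.1, 56.6 and 34 CPM in WT and at 22.1, 40.5, 24.6 and 42.5 CPM in KO. Here KO replicates 2 and 4 both exceeded WT replicates 2 and 4, and the log2 difference was -0.53 ± 0.288 (edgeR adjusted p = 0.398).

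Alas2 stood at 25.2, 12.5, 26.9 and 16.2 CPM in WT and at 10.2, 20.2, 11.4 and 14.3 CPM in KO. As for the globins, WT replicates 1 and 3 were high and KO replicates 1 and 3 low, and the groups overlapped. The log2 difference was -0.53 ± 0.314 (edgeR adjusted p = 0.437).

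**Figure D2:**
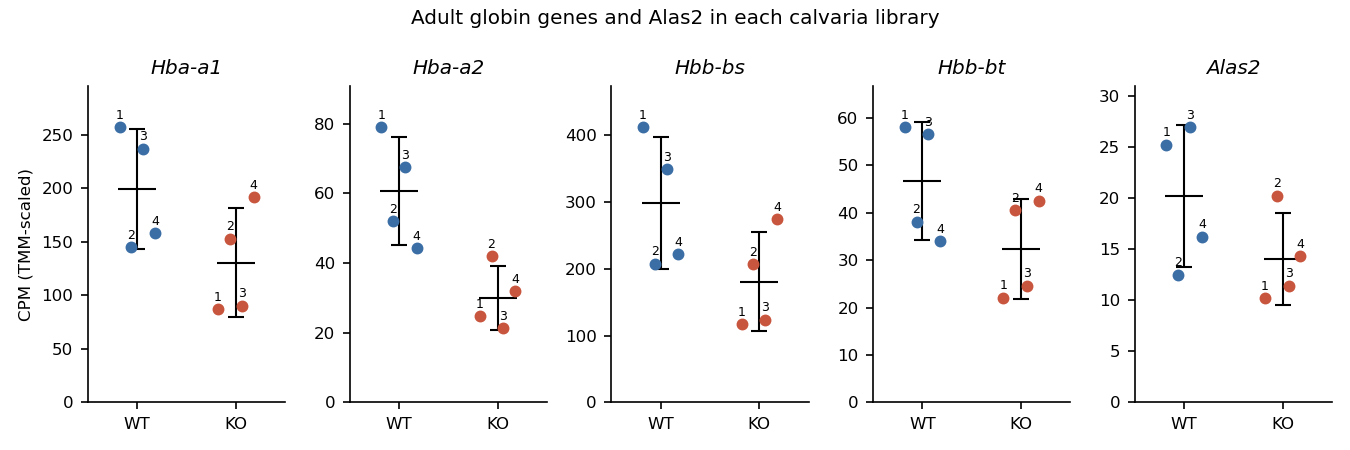
CPM (y axis, TMM-scaled) of the 4 adult globin genes and Alas2 in each WT (blue) and KO (red) library, with replicate numbers beside the points, horizontal bars for group means and error bars for the SD (n = 4). KO replicates 1 and 3 are the lowest 2 libraries in all 5 panels. The groups are separate for Hba-a2 alone, a gene whose split of reads from Hba-a1 is uncertain.

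The filter on low counts was passed by 5 of the 8 genes: the 4 adult globins and Alas2. Of these, 0 passed an adjusted p of 0.05 in edgeR or limma-voom, against 1.32% and 1.29% of all genes. DESeq2 called 1, against 5.37%. An unadjusted p under 0.05 and groups without overlap were each found for 1 of the 5, Hba-a2, against 17.4% and 10.6%. The median log2 difference of the 5 was -0.61, and that of all tested genes was -0.0003. All 5 were below 0 in the 17 or 18 alternatives run for each. Without the 3 muscle-poor libraries the differences were -0.41 for Hba-a1, -1.04 for Hba-a2, -0.51 for Hbb-bs, -0.42 for Hbb-bt and -0.55 for Alas2. In bulk tissue, fewer red cells and less RNA per red cell cannot be told apart.

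The globin genes together took a small share of the counts, which depends on how reads that fit both copies were counted. It was 0.079%, 0.0432%, 0.0708% and 0.0447% of all counts in WT and 0.0243%, 0.0459%, 0.0267% and 0.0562% in KO. The groups overlapped, with means of 0.0594 ± 0.0182% and 0.0383 ± 0.0154% (SD, n = 4 each), and the highest library had 3.25 times the share of the lowest. Exact 95% intervals of single libraries cover counting error only, such as 0.0239 to 0.0247% in KO replicate 1. These sums over chosen genes carry no test.

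The balance of the chains was far steadier than their amount. The ratio of alpha-type to beta-type counts was 0.764 ± 0.0387 in WT and 0.762 ± 0.0427 in KO, and its highest value was 1.14 times its lowest. Within the alpha pair, the ratio of Hba-a1 to Hba-a2 counts was 3.25, 2.78, 3.51 and 3.56 in WT and 3.52, 3.63, 4.22 and 6.03 in KO. KO replicate 4 stood apart with relatively few Hba-a2 counts, and the group means were 3.28 ± 0.359 and 4.35 ± 1.16. Within the beta pair, the ratio of Hbb-bs to Hbb-bt counts was 7.1, 5.48, 6.16 and 6.53 in WT and 5.29, 5.12, 5.05 and 6.46 in KO. Its means were 6.32 ± 0.681 and 5.48 ± 0.663, and KO replicate 4 again lay above the other KO libraries. As the partners share most of their sequence (the stretches around C381T and C417T above), these ratios depend on how reads were assigned. Alas2 counts per 1000 globin counts were 31.3, 28.2, 37.9 and 35.3 in WT and 40.7, 45.7, 43.6 and 26.5 in KO. Here KO replicate 4 was the lowest library and the other KO libraries were the highest, with means of 33.2 ± 4.28 and 39.1 ± 8.68.

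**Figure D3:**
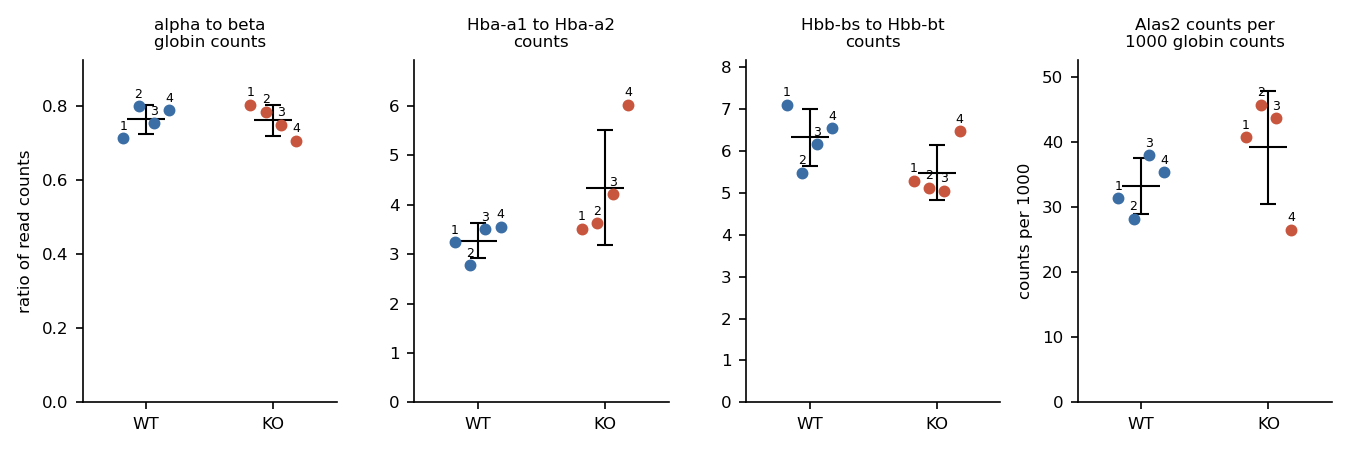
Ratios of read counts (y axes) by library: alpha-type to beta-type globins, Hba-a1 to Hba-a2, Hbb-bs to Hbb-bt, and Alas2 per 1000 globin counts, with means and SD (n = 4) and replicate numbers. The alpha to beta ratio stays between 0.707 and 0.804, whereas KO replicate 4 departs from the other KO libraries in the other 3 panels.

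The globin genes varied together from library to library. Across the 8 libraries, the log2 CPM of Hba-a1 and Hbb-bs, on different chromosomes, had a Pearson r of 1.00 and a Spearman rho of 0.98. For the adult globins as a set, log2 CPM was standardized per gene over the libraries and averaged over the 4 genes. This mean, used for the adult globins in all correlations below, had r = 0.89 and rho = 0.79 with the log2 CPM of Alas2. Without KO replicates 1 and 3, which lie farthest from the median, r was 0.81, and with the group means removed it was 0.86. These values describe 8 libraries that also share their dissection, and no p is given.

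Taken as a list, genes of the red cell membrane and its skeleton had another order of libraries than the globins. The list is mixed. In it, Tmod1 and Ank1 were highest in KO replicate 1 (8.74 and 15.7 CPM) and lowest in WT replicate 3 (0.402 and 5.59). The summed level of the skeletal muscle genes was highest and lowest in the same libraries. Of 17 tested genes of this list, such as Slc4a1 (band 3, the anion exchanger) and Gypc (glycophorin C), 14 had a log2 difference above 0, with a median of 0.34. None passed an adjusted p of 0.05 in edgeR, DESeq2 or limma-voom. Only 1, Aqp1 (a water channel also found in vessels), had an unadjusted p under 0.05, against 17.4% of all tested genes. Without the 3 muscle-poor libraries the median was -0.23, so the sign of this list rested on them. Icam4, the remaining listed gene, had 0 counts in every library.

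Slc4a1 stood at 10.1, 8.39, 16.7 and 6.34 CPM in WT and at 3.49, 38.8, 19.2 and 8.32 in KO. Its highest libraries, KO replicates 2 and 3 and WT replicate 3, were the muscle-poor ones. Of these, KO replicate 3 was among the lowest for the globins and WT replicate 3 among the highest. Its log2 difference was 0.75 ± 0.758 (edgeR adjusted p = 0.665). Gypc had -0.15 ± 0.0744 (0.325), Aqp1 0.19 ± 0.0735 (0.203) and Add2 (beta adducin) 0.28 ± 0.236 (0.583). Add2 turned to -0.28 without the muscle-poor libraries.

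Over the 8 libraries the mean log2 CPM of the membrane genes had r = 0.25 and rho = 0.19 with the adult globins, and r = 0.43 and rho = 0.33 with Alas2. With the group means removed, r was 0.47 and 0.60. In KO replicate 2 the membrane genes lay 1.03 above their 8-library mean on the log2 scale while the globins lay 0.01 above theirs. In KO replicate 3 they lay 0.27 above and the globins 0.79 below (-0.79). In KO replicate 1 both were low, at -0.83 and -0.81.

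None of the listed regulators of globin transcription passed the test. Gata1, the leading erythroid factor, stood at 0.427, 0.745, 1.25 and 0.373 CPM in WT and at 0.173, 2.08, 0.926 and 0.598 in KO, again highest in KO replicate 2 and WT replicate 3. Klf1, which activates the adult beta-globin gene through CACCC sequences, stood at 1.21 CPM in WT and 1.55 in KO (log2 difference 0.37 ± 0.568, edgeR adjusted p = 0.783). Of the 15 listed regulators, all tested, 0 passed in edgeR, DESeq2 or limma-voom. An unadjusted p under 0.05 was found for 4 of them, against 17.4% of all tested genes. The median of 0.13 turned to -0.17 without the muscle-poor libraries.

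Those 4 were factors that many cells use. For 3 of the 15, Bach1, Nfe2l2 and Ldb1, the groups did not overlap, against 10.6% of all tested genes. Bach1, a repressor that heme inactivates, had a log2 difference of -0.27 ± 0.0903 (edgeR adjusted p = 0.16). Nfe2l2, its counterpart as an activator, had -0.20 ± 0.069 (0.167). Ldb1, a bridging cofactor, had 0.21 ± 0.0807 (0.204), and Zbtb7a, a repressor of embryonic and fetal globin genes, 0.20 ± 0.0765 (0.216). None of these passed.

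**Figure D4:**
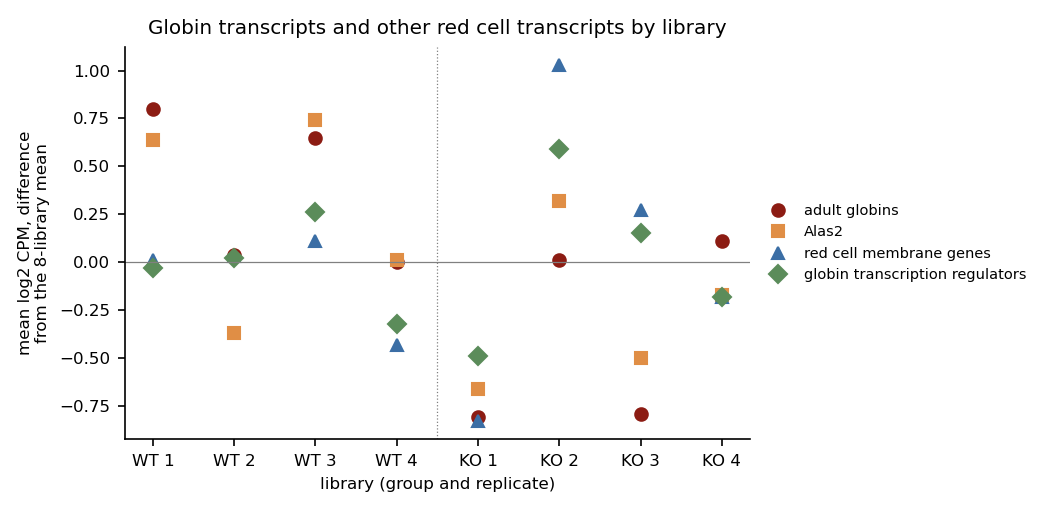
Mean log2 CPM of the adult globins, Alas2, the red cell membrane genes and the globin transcription regulators in each library (x axis), as the difference from the mean over 8 libraries (y axis). Globins and Alas2 are low in KO replicates 1 and 3, while membrane genes and regulators are highest in KO replicate 2 and lowest in KO replicate 1.

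The enzymes of heme synthesis were all expressed in every library, and 0 of 9 passed the test. After Alas2 and Alas1, the pathway runs through cytosolic enzymes such as Alad, Uros and Urod and through Cpox, Ppox and Fech at the mitochondrion. An unadjusted p under 0.05 was found for 2 of them (17.4% of all tested genes), and DESeq2 called 1 (5.37% of all). For 2 of the 9 the groups did not overlap (10.6% of all tested genes). The median log2 difference of the 9 was -0.11, with 6 below 0 and 3 above. Alas2 had the largest absolute difference and the largest SE of the 9.

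Ppox, which makes protoporphyrin, stood at 36.6, 37, 39.1 and 35.3 CPM in WT and at 30, 33.7, 27 and 27.5 CPM in KO. The groups did not overlap, and the log2 difference was -0.32 ± 0.0806 (edgeR adjusted p = 0.0744, DESeq2 0.0137). Ppox lies near Kcnj9, the gene named by the genotype, on chromosome 1 (171275990 to 171281186). Whether this position bears on the difference was not tested. Alas1, the form of most tissues, stood at 33.4, 38.8, 33.4 and 34.2 CPM in WT and at 30.7, 28.7, 30.4 and 32 CPM in KO, also without overlap. Its log2 difference was -0.20 ± 0.0723 (edgeR adjusted p = 0.189). Per kb of exon, Alas1 stood at 5.66 ± 0.418 CPM per kb in WT and 4.93 ± 0.222 in KO, against 8.41 ± 2.9 and 5.83 ± 1.86 for Alas2, and the levels of the pair overlapped in both groups.

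Levels of the other enzymes described overlapped between the groups. Alad had a log2 difference of -0.15 ± 0.0883, Urod -0.06 ± 0.0748 and Fech, which inserts the iron, -0.11 ± 0.0677 (edgeR adjusted p = 0.402, 0.748 and 0.43). Uros had 0.07 ± 0.0955 and Cpox 0.04 ± 0.096 (0.759 and 0.861). The sign of Cpox turned under some alternatives.

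Iron uptake held the single gene of the heme and iron lists that passed in edgeR. Tfrc, the transferrin receptor by which cells take up iron, stood at 112, 124, 144 and 121 CPM in WT and at 65.8, 80.5, 90.4 and 61.5 CPM in KO. All KO libraries lay below all WT libraries. Tfrc fell by 0.75 on the log2 scale (SE 0.122, a ratio of 0.597, edgeR adjusted p = 0.0167), and DESeq2 and limma-voom called it too (1.47e-06 and 0.0145). The edgeR call was lost without WT replicate 2 (adjusted p = 0.0574), WT replicate 3 (0.0501) or KO replicate 2 (0.0505), and held without the 3 muscle-poor libraries (log2 difference -0.89, 0.0297).

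Many dividing cells carry Tfrc, and its order of libraries was not that of the globins: KO replicate 3 was the highest KO library for Tfrc and among the lowest for globins. Between Tfrc and the adult globins r was 0.54 and rho 0.36 over the 8 libraries, and with the group means removed r was -0.20. Of the 6 genes of the list, all tested, 1 passed lower in KO (0.874% of all genes did) and 0 higher, with a median of -0.17. Slc11a2 (the iron transporter DMT1) had -0.28 ± 0.0746 without overlap of the groups (edgeR adjusted p = 0.0914), and DESeq2 called it (0.0192). Tfr2 had -0.23 ± 0.151 (0.456) and Exoc6, of transferrin receptor recycling, -0.10 ± 0.126 (0.731). Epor, the erythropoietin receptor, had 3.34 CPM in WT and 3.49 in KO.

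Transport of iron and heme in the mitochondrion gave 0 of 10 passing genes in edgeR and a median of -0.04. Of the 10, 2 had an unadjusted p under 0.05, against 17.4% of all tested genes. Snx3, a sorting protein for the transferrin receptor, stood at 131, 145, 128 and 118 CPM in WT and at 108, 107, 105 and 106 in KO, without overlap. Its log2 difference was -0.29 ± 0.072 (edgeR adjusted p = 0.0694). Slc25a39, a mitochondrial glutathione carrier, had -0.28 ± 0.0713 (0.0831), also without overlap. DESeq2 called these 2 genes (5.37% of all tested genes). Slc25a37 (mitoferrin 1, the iron importer of red cell precursors) had 0.22 ± 0.171 (0.547) and Fam210b -0.15 ± 0.116 (0.538). Slc25a37 was highest in KO replicate 2, at 73.7 CPM, as the membrane genes were.

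Heme breakdown, export and iron storage gave 0 of 10 passing genes in edgeR and a median of -0.13. Of the 10, 4 had an unadjusted p under 0.05, against 17.4% of all tested genes. Fth1, the ferritin heavy chain that stores iron, stood at 498, 567, 513 and 451 CPM in WT and at 393, 340.0, 375 and 426 CPM in KO, without overlap. The log2 difference was -0.40 ± 0.0904 (edgeR adjusted p = 0.052), and the gene passed in DESeq2, without KO replicate 4 and without the count filter. Hmox1, the inducible heme oxygenase, had -0.25 ± 0.091 (0.183) without overlap. Blvra (biliverdin reductase) had -0.21 ± 0.0931 (0.271) and Flvcr1 (a heme exporter) -0.27 ± 0.122 (0.281).

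Of the proteins that work beside haemoglobin, 7 of 8 listed genes were found and tested. None passed in edgeR or DESeq2, and 4 had an unadjusted p under 0.05, against 17.4% of all tested genes. Bpgm, which makes the phosphate compound that lowers oxygen affinity in red cells, had -0.28 ± 0.09 (edgeR adjusted p = 0.15). Across the libraries it was close to the globins, with r = 0.88 and rho = 0.88. Eif2ak1, the kinase that couples globin translation to heme, had -0.18 ± 0.066 (0.201) without overlap. Hp (haptoglobin, which binds free haemoglobin) had -1.01 ± 0.368 (0.215), and -0.59 without WT replicate 1, its highest library at 14.2 CPM. Cd163, the receptor for that complex on macrophages, had -0.24 ± 0.0849 (0.182). The median of the 7 was -0.18.

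**Figure D5:**
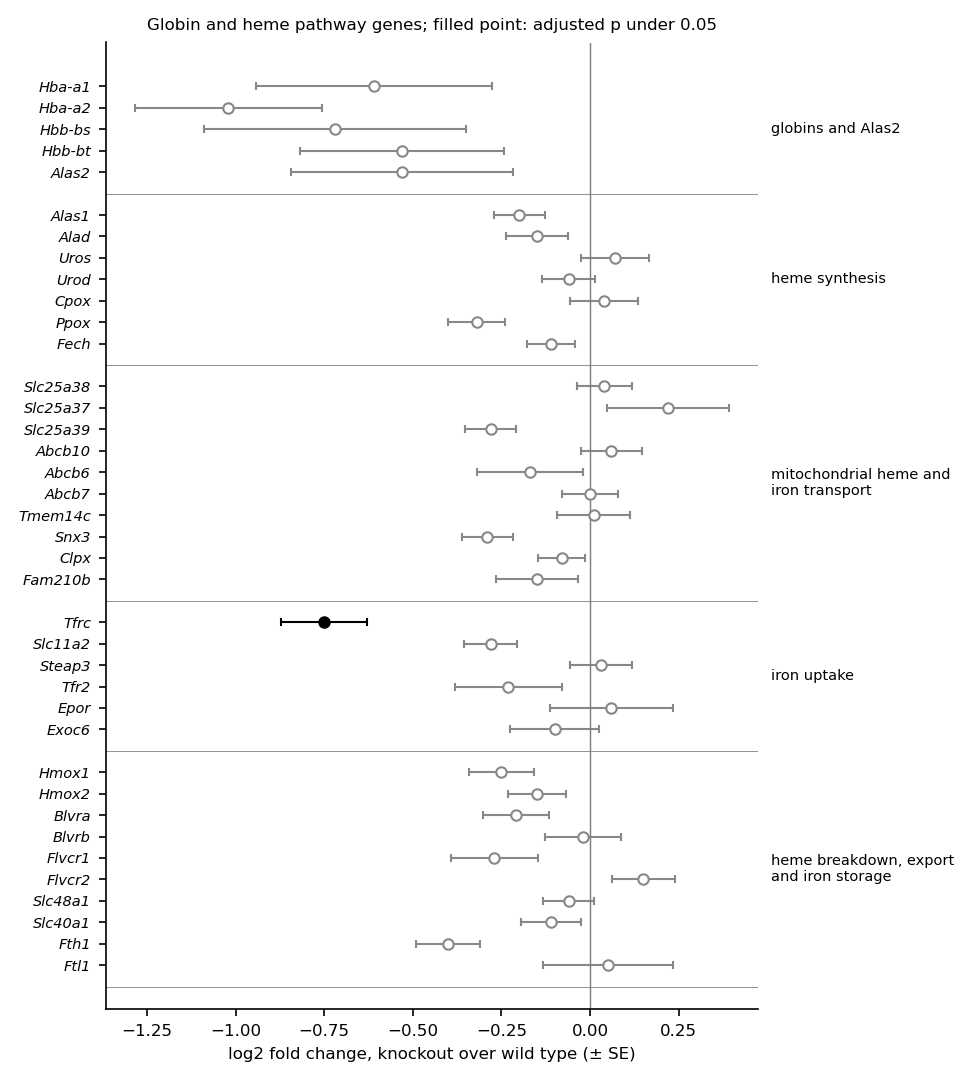
Log2 fold change of KO over WT (x axis, points with bars for ± SE of the edgeR fit) for the tested globins and Alas2, enzymes of heme synthesis, mitochondrial transport, iron uptake, and heme breakdown and storage. Tfrc, at -0.75, is the only filled point, which marks an adjusted p under 0.05; the globins lie further from 0 than most genes shown, with wider error bars.

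Markers of other cells that skull bone can hold were read beside these results. Of 12 macrophage genes, all tested, Lyz2 fell by 0.89 (SE 0.0811, edgeR adjusted p = 0.000487), and the median was -0.42, or -0.15 without the 3 muscle-poor libraries. The log2 difference was below 0 for 11 of them, and 8 had an unadjusted p under 0.05 (17.4% of all tested genes). Groups did not overlap for 4 (10.6% of all), and DESeq2 called 5 (5.37% of all). Their summed level was 641 to 842 CPM in WT and 507 to 631 in KO, without overlap. Of 7 tested platelet genes 0 passed in edgeR (median 0.17) and 1 in DESeq2 (5.37% of all). An unadjusted p under 0.05 was met by 1 (17.4% of all). Neither an adjusted nor an unadjusted p under 0.05 was found for any of 10 neutrophil genes (median 0.08), 10 B cell genes (0.15), 14 skeletal muscle genes (-0.42) or 8 endothelial genes (-0.09). Without the 3 muscle-poor libraries the medians were -0.01 for platelet, -0.83 for neutrophil, -0.46 for B cell, 0.08 for skeletal muscle and -0.04 for endothelial genes. The neutrophil sum was 4.5 CPM in KO replicate 1, where globins were also low, and 90.5 in KO replicate 2. Of the 10 bone-forming cell genes, Bglap (osteocalcin) fell by 0.48 (SE 0.101, adjusted p = 0.0383), a call lost on leaving out WT replicate 1, 2 or 3 or KO replicate 1, 2 or 3. It was also lost with library totals alone (0.0639), with the replicate number as a block (0.052) and without the 3 muscle-poor libraries (0.432). The part of macrophages, muscle or marrow in the globin differences was not tested.

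The genes whose profile over the 8 libraries was most like that of the 4 adult globins were sought among 13005 tested genes with a mean of at least 1 CPM. They were Fgf18 (r = 0.958), Cfb (0.939), Dnajb1 (0.930), Usp43 (0.929), Lsm10 (0.918), Rgs4 (0.913), P2ry14 (0.912) and Adgrg2 (0.906). For Alas2 they were Gabra3 (0.976), Dlgap3 (0.931), Rnf114 (0.911), Igfbp3 (0.891), Vsnl1 (0.887), Rasgrp1 (0.886), Surf2 (0.880) and Adgrg2 (0.880). No gene of the red cell membrane or regulator lists was among them. Listed genes below the minimum level, such as Gata1 (0.699 CPM in WT and 0.943 in KO), could not appear. Adgrg2 was in both sets. The genes named for each profile are the extremes of 13005 values, each over 8 libraries, and are given as a description with no p.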

How the data were processed

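Bulk RNA-seq counts of 4 WT and 4 KO libraries were used. The deposited table holds whole-number read counts per gene ID, not normalized by the authors. The submitters' processing notes list bcl2fastq 2.17, STAR 2.5.2b, the Subread 1.5.2 program featureCounts, and build mm10. The annotation release, strand setting and multi-mapping rule were not given in the sources used here. Symbols, exon lengths and coordinates came from GENCODE release M21 (GRCm38), and promoters from RefSeq (GRCm38.p6).

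Genes were kept by filterByExpr of edgeR 4.0.16 (minimum count 10, minimum total 15), which left 17743. KO and WT were compared with edgeR's quasi-likelihood test on TMM-scaled counts (factors 0.972 to 1.04), two-sided, with Benjamini-Hochberg adjustment over all tested genes. Genes below the filter were compared by an exact permutation test. CPM on TMM-scaled totals were put on the log2 scale with a prior count of 2. DESeq2 1.42.0, limma 3.58.1, other scalings and filters and samples left out served as alternatives. The fit was tested on simulated data. Deviations of log2 CPM from the group mean, over the tested genes, were correlated between same-numbered KO and WT libraries. The values were 0.255, -0.179, 0.34 and -0.00498 for replicates 1 to 4. They do not decide whether equal numbers shared a litter or day, and the main fit used no pairing. The text names all 8 genes, the heme enzymes, up to 4 genes of smallest p and any called gene of each of the other lists described, and the 8 genes most like each profile by Pearson r. Further genes, such as Slc4a1, Gata1, Tmod1 and Ank1, are named as examples outside this rule. Of 162 symbols in 15 lists, 159 matched; Ahsp, Hbb-b1 and Hbb-b2 did not. Genes and lists were chosen with earlier results of these data known. Some genes that this rule takes are not reported here. No sample was left out of the main comparison.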

Additional observations from a re-analysis of the deposited data

Results flagged for a closer look

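Among 90 groups of 4 libraries examined (the named genes in WT and in KO, and the globin shares and ratios), 7 had a library far from the other 3 by Dixon's criterion, and chance alone gives about 4.5. The ratio of Hbb-bs to Hbb-bt counts was 6.46 in KO replicate 4 against 5.05 to 5.29 in the other KO libraries. Among heme enzymes, Alas1 stood at 38.8 CPM in WT replicate 2 against 33.4 to 34.2, and Cpox at 36.1 CPM in WT replicate 4 against 39.6 to 40.2. Fam210b stood at 8.65 CPM in KO replicate 4 against 10.8 to 11.1. Exoc6 stood at 7.67 CPM in WT replicate 2 against 6.63 to 6.68. Of the membrane genes, Aqp1 stood at 268 CPM in KO replicate 2 against 301 to 305, and Add2 at 4.18 CPM in WT replicate 1 against 3.38 to 3.51.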

How the results depend on the processing

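The log2 differences of Hba-a1, Hba-a2, Hbb-bs, Hbb-bt and Alas2 stayed below 0 in every alternative run. None passed except Hba-a2 in DESeq2 (-1.01). The replicate block gave 126 called genes in place of 234, and Hba-a2 at -1.03 (edgeR adjusted p = 0.259). Called genes numbered 355 without a count filter, 952 in DESeq2, 8 without the 3 muscle-poor libraries, and 57 to 608 leaving out 1 library. Leaving out 1 library, log2 differences ran from -0.05 to 0.11 for Cpox, -0.15 to 0.00 for Exoc6 and -0.20 to 0.01 for Cygb. Without the muscle-poor libraries, signs turned for Cpox (-0.11), Slc25a37 (-0.03), Cygb (0.14) and Add2 (-0.28), and the cause was not tested. With counts divided by exon length, the KO minus WT difference of the globin share was -0.0965 percentage points in place of -0.0211, by the construction of that share. For the embryonic genes, which held at most 2 counts, fits with other filters, tests or a block are not reported. Depth limits what can be said of the embryonic genes.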
